A study of Mus musculus with 12 samples.

Results

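The genes described here are 8 members of the machinery that cuts and spares extracellular matrix in a healing fracture callus: the matrix metalloproteinase genes Mmp2, Mmp9 and Mmp14, the plasminogen activator gene Plau, the ADAMTS protease genes Adamts1 and Adamts8, and the inhibitor genes Timp1 and Timp2. They were chosen by symbol from the scanner files, and are 8 of the 188 gene symbols measured. The angiogenesis arrays carry 7 of them (all but Mmp14) and the hypoxia arrays carry 2 (Mmp14 and Plau, so that Plau was measured on both types), each with 1 spot per array. The RNA came from the callus of a closed, fixed fracture of the femur in mice labelled HET for HIF-1a and in mice labelled WT, 7, 10 and 14 days after the fracture. For each genotype and day, RNA pooled from 3 animals was measured on 1 array of each type, 12 arrays in all, and the labels do not say whether both types received the same pool. No value below therefore has a replicate, and differences between animals were not measured. All groups share the fracture and its fixation, and the series title calls the HET mice partly deficient in HIF-1alpha. The labels give neither the strain, age or sex of the mice nor the allele behind HET.

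A callus is first cartilage and fibrous tissue and is later replaced by bone, which requires that old matrix is removed while new matrix is laid down. Matrix metalloproteinases cut collagens, gelatin and other matrix proteins, plasminogen activators start the plasmin cascade, which cleaves fibrin and activates metalloproteinases, and ADAMTS proteases cut proteoglycans such as aggrecan and versican. Tissue inhibitors of metalloproteinases (TIMPs) bind the active enzymes, and TIMP2 also takes part in the activation of pro-MMP2 by MMP14 at the cell surface. In mice, MMP9 is made by osteoclasts and related cells and is needed for vessels to enter cartilage. HIF-1, whose oxygen-regulated subunit is encoded by Hif1a, binds DNA at the core ACGTG or GCGTG.

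Because the mice differ in the gene for a subunit of HIF-1, the promoters of the members are shown with this core in capitals. Promoter windows of 300 bases, from 250 before to 50 after the annotated start (RefSeq, GRCm38.p6), were at hand for 4 of the 8 members. The windows are chr14:54431348-54431647 (plus strand) for Mmp14, chr16:85803064-85803363 (minus strand) for Adamts1, chrX:20869916-20870215 (plus strand) for Timp1 and chr11:118355362-118355661 (minus strand) for Timp2.
Mmp14: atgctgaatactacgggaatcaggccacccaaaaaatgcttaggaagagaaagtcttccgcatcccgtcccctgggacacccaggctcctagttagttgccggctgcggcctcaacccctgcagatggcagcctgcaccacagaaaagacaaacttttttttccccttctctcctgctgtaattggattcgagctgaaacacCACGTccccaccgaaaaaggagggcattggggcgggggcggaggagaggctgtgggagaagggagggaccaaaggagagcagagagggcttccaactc
Adamts1: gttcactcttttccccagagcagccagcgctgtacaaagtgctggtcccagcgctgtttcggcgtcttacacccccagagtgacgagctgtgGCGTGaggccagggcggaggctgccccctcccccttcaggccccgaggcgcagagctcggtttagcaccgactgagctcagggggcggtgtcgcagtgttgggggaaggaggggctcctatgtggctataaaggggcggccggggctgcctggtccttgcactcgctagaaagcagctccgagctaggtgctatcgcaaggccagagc
Timp1: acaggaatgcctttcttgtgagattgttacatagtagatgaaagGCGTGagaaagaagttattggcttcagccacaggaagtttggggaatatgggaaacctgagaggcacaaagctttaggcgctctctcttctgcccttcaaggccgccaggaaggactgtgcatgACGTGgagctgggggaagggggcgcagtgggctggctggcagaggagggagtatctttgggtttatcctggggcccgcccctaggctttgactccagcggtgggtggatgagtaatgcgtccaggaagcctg
Timp2: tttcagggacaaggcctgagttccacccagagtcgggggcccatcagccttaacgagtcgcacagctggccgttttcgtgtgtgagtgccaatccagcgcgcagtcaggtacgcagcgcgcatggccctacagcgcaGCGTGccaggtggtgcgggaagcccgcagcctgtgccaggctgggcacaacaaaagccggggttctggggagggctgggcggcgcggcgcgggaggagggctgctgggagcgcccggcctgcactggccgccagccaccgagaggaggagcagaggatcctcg
On either strand, ACGTG or GCGTG occurred once in Mmp14, with its first printed base at -48 from the start, once in Adamts1 at -158, once in Timp2 at -113, and 2 times in Timp1, at -206 and -82. Of all 32841 mouse promoter windows of this length, 43.8% hold at least 1 such core. The AP-1 motif TGANTCA, searched on both strands, was in 0 of these 4 windows and in 7.81% of all. These matches are letters in a window, and binding was not measured.

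The values are spot densities, the brightness of a membrane spot on a linear scale. A gene counts as above background on an array where its spot was brighter than the brightest PUC18 (plasmid DNA) or Blank spot of that array. This limit ranged from 162 to 490 on the angiogenesis arrays and from 12.7 to 805 on the hypoxia arrays. The arrays differed in how much they showed: of 100 genes, 12, 91 and 44 were above background on the angiogenesis arrays labelled HET at days 7, 10 and 14, against 9, 76 and 79 on the WT arrays. The hypoxia counts were 20, 53 and 46 in HET and 27, 56 and 42 in WT. The Hif1a spot went against the labels at day 7, with 25140 (angiogenesis) and 5509 (hypoxia) on the arrays labelled HET and 8037 and 137 on those labelled WT, and was dimmer in HET in all 4 later pairs. Where its probe lies in the gene is unknown here, so this checks no label. The bone marker gene Col1a1 was above background on all 6 hypoxia arrays and past the scanner's ceiling (density 45701) on 4 of them. Of the other lists, 2 macrophage, 7 endothelial and 1 fat marker gene were on the arrays, and the listed cartilage, osteoclast and muscle markers were not. Mylpf, a skeletal muscle myosin gene outside the list and named after its values were seen, was above background on 6 of 6 hypoxia arrays, with a day 14 minus day 10 difference of -1.35 (limma adjusted p = 0.13).

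At day 7 none of the members was above background on any of the 4 arrays of either type. At day 10, 7 of 7 members on the angiogenesis arrays were above it in HET and 6 of 7 in WT, beside 91 and 76 of 100 genes. At day 14 these were 3 of 7 in HET and 6 of 7 in WT, beside 44 and 79 of 100 genes. The order of the genotypes at day 10 depended on the limit, which was 162 in HET and 490 in WT. With 1 limit for all arrays, 5 members in HET and 6 in WT were above it at day 10, and 3 and 5 at day 14. With a limit at the mean plus 2 SD of the control spots, 7 and 5 were above it at day 10. Mmp9, Timp1 and Timp2 were above background on all 4 arrays of days 10 and 14, Mmp2, Plau and Adamts8 on 3 of these 4, and Adamts1 on 1. Mmp14 and Plau were each above background on 1 of 6 hypoxia arrays, both in WT. Of the 100 genes there, 7 were above background in WT only at day 10 and 4 in HET only. At day 14 these counts were 7 and 11. On the angiogenesis arrays at day 10, 17 of 100 genes were above background in HET only, Adamts1 among them, and 2 in WT only. Over the whole angiogenesis array, 35 of 100 genes were above background in WT only at day 14 and 0 in HET only. Mmp2, Plau and Adamts8 were 3 of those 35.

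**Figure D1:**
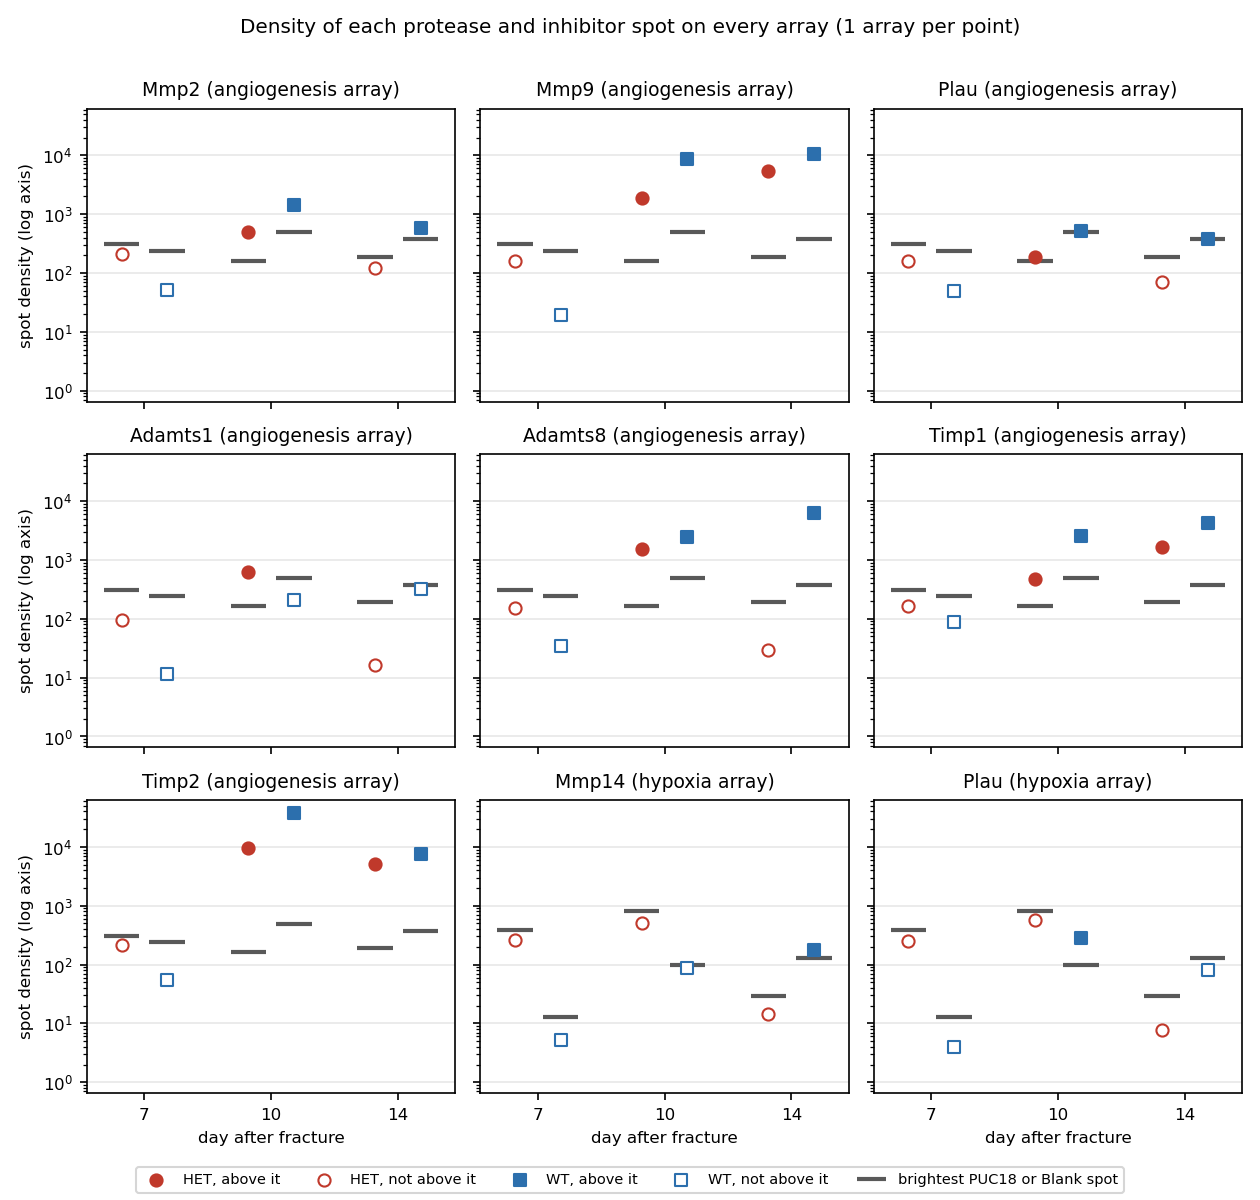
Spot density (log axis) of each member on every array, by day after fracture, with HET left of WT; each point is 1 array, filled where it is above the brightest control spot (grey bar) and open where it is not. Every point of day 7 is open, Mmp9, Timp1 and Timp2 are filled on all 4 later arrays, and Adamts8 is open in HET at day 14 (density 29.96) beside 6295 in WT.

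Among the metalloproteinases, Mmp9 (gelatinase B) had densities of 158, 1865 and 5419 on the arrays labelled HET at days 7, 10 and 14, against 19.0, 8674 and 10506 on the WT arrays. It was at least 11.5 times its array's brightest control spot on each of the 4 later arrays. Mmp2 (gelatinase A) had densities of 214, 494 and 120 in HET, against 51.3, 1452 and 571 in WT. It was highest at day 10 in both genotypes, and at day 14 it was above background in WT only. Mmp14, the membrane-bound activator of pro-MMP2, had densities of 257, 509 and 14.3 in HET on the hypoxia arrays, against 5.33, 87.2 and 179 in WT. Only the last of these 6 values exceeded its own array's control spots (128.5), so the higher Mmp14 densities in HET at days 7 and 10 lie within the background of their arrays (391 and 805).

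Plau (urokinase) was a dim gene on both array types. On the angiogenesis arrays its densities were 158, 184 and 68.9 in HET and 48.9, 516 and 377 in WT. Where it passed the limit, it did so by a factor of 1.13 in HET at day 10, and of 1.05 and 1.01 in WT at days 10 and 14. The hypoxia arrays gave it 252, 569 and 7.66 in HET and 3.99, 286 and 81.2 in WT, and passed its limit in WT at day 10 alone, by a factor of 2.87. There the HET density was the higher of the pair, but on an array whose brightest control spot stood at 805.

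The ADAMTS genes, whose products can restrain vessel growth as well as cut proteoglycans, were both bright enough to be seen on some arrays. Adamts1 had densities of 95.5, 636 and 16.3 in HET, against 11.3, 206 and 315 in WT, and was above background in HET at day 10 only. Adamts8 had densities of 154, 1520 and 29.96 in HET, against 34.3, 2462 and 6295 in WT. Its WT density at day 14 was 16.8 times that array's limit, while the HET spot was 0.158 times its own.

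Of the inhibitors, Timp1 had densities of 166, 474 and 1690 in HET, against 87.6, 2552 and 4204 in WT. Timp2 had densities of 218, 9723 and 5031 in HET, against 54.9, 37068 and 7492 in WT. Timp1 was brighter at day 14 than at day 10 in both genotypes, whereas Timp2 was dimmer at day 14 than at day 10 in both. In bulk RNA of a callus, fewer cells that make a transcript and less of it per cell cannot be told apart.

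Genotype differences are given as HET minus WT on the log2 scale after quantile normalization of the 6 arrays of a type, and beside it without normalization, because the scaling decided much. At day 10 on the angiogenesis arrays, the median difference over the 67 genes measured in both genotypes was -0.17 after normalization and -1.45 without it, -1.04 with each array scaled to its reference genes and 0.16 with each scaled to its median. At day 14 it was 0.31, -1.25, -1.32 and 1.63 over 38 genes. Where only 1 array of a pair showed the gene, the difference is a bound, taken against the dimmest gene that the other array showed above its limit.

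At day 10, Adamts1 was at least 2.77-fold (1.47 log2 units) higher in HET, or at least 1.23-fold without normalization, and remained above 0 under the other scalings tried. It was 1 of 7 members at least 2-fold higher, where 7.79% of the 77 genes with a difference or bound were. Timp2 and Timp1 differed by -1.22 and -1.03, 2 of 7 members at least 2-fold lower against 13% of all genes. Without normalization they differed by -1.94 and -2.58, but with median scaling by -0.32 and -0.97, both short of 2-fold. Timp1 also fell short of 2-fold with offset 50 (-0.96) and without background correction (-0.95). With 1 background limit for all arrays it had only a bound, of -0.98. Mmp9 differed by -0.84, Plau by -0.62 and Mmp2 by -0.21, and by -2.25, -1.92 and -1.70 without normalization. Adamts8 stood at 0.57 but at -0.74 without normalization. Mmp2, Mmp9, Plau, Timp1 and Timp2 were thus below 0 under all 4 scalings. When the 67 genes were ranked from highest to lowest difference without normalization, Adamts8 was at rank 20, Mmp2 at 42, Plau at 50, Timp2 at 51, Mmp9 at 58 and Timp1 at 63. Timp1 was the lowest of these members, so each of the others must stand higher in HET relative to it. On the same arrays, Adamts8 did so by 1.85 log2 units, Mmp2 by 0.89, Plau by 0.67, Timp2 by 0.65 and Mmp9 by 0.33. These unnormalized values do not depend on how an array is scaled as a whole. After quantile normalization, which is no such scaling, Timp2 stood at -0.19 relative to Timp1. Repeat spots of the reference genes, in 27 sets, had a pooled SD of 0.33 log2 units, which covers the spot alone and not the pool or the membrane.

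At day 14, Adamts8 was at least 3.47-fold (1.80 log2 units) lower in HET after normalization, and the bound was -4.88 without it, -1.99 with median scaling and -4.95 with reference gene scaling. With 1 background limit for all 6 arrays in place of each array's own, the normalized bound was -0.87, short of 2-fold. The unnormalized bound was the lowest of the 35 genes above background in WT only. All 35 were set against the same dimmest HET gene, so this rank follows their WT values and not the size of a loss in HET. Adamts8 was 1 of 4 members at least 2-fold lower against 13% of the 46 genes with a value, and 0 of 4 were at least 2-fold higher against 8.7%. Mmp9, Timp1 and Timp2 differed by -0.13, 0.15 and 0.06, and by -0.94, -1.28 and -0.56 without normalization. The array medians of this pair differ so much that median scaling put the same 3 genes at 1.94, 1.60 and 2.32. Without normalization Timp1 again had the lowest difference of these 3 genes. Relative to it, Mmp9 was 0.34 log2 units and Timp2 0.72 units higher in HET, close to the 0.33 and 0.65 of day 10. After quantile normalization both turned, to -0.28 and -0.09.

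**Figure D2:**
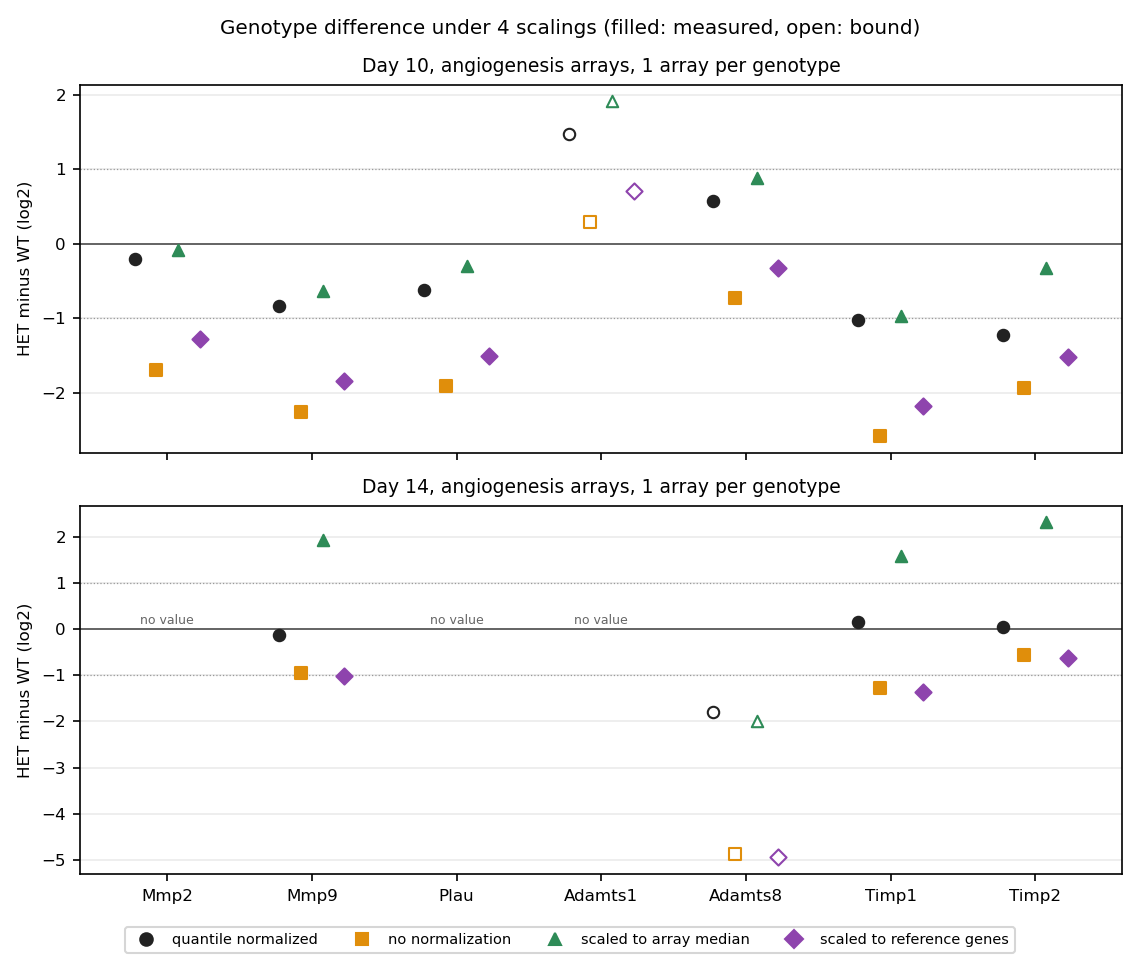
HET minus WT difference (log2) of the 7 members on the angiogenesis arrays at day 10 (top) and day 14 (bottom) under 4 scalings of the same 2 arrays; filled markers are measured, open markers are bounds, and dotted lines mark 2-fold. At day 10 the markers of Mmp2, Mmp9, Plau, Timp1 and Timp2 lie below 0 and those of Adamts1 above it, and at day 14 only Adamts8 keeps its side.

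On the hypoxia arrays, Mmp14 at day 14 was lower in HET by a bound of -0.75 after normalization and -1.86 without it. It did not pass 2-fold after normalization, where 17.4% of 46 genes were at least 2-fold lower. For Plau at day 10 the normalized bound was -0.25, and no bound came from unnormalized or reference gene scaled values, beside 14.6% of 48 genes at least 2-fold lower.

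Over the 3 days, the genotype effect was tested with limma over the 6 arrays of a type with a term for day, so that 2 degrees of freedom remain. What is left as error is how far HET minus WT varied from day to day, together with array noise. No member passed an adjusted p of 0.05, and neither did any other gene: 0 of 96 genes (0%) on the angiogenesis arrays, with 2 at an unadjusted p under 0.05, and 0 of 73 (0%) on the hypoxia arrays, with 3. On the angiogenesis arrays, the largest fitted effects among the members were Timp1 at -1.60 (95% confidence interval -3.81 to 0.61, adjusted p = 0.87) and Adamts8 at -1.15 (adjusted p = 0.87). The size for Timp1 rested largely on day 7, where quantile normalization put its background spots at 8.48 in HET and 12.41 in WT. Without day 7 Timp1 was fitted at -0.44, and with median scaling at -0.10. Adamts8 was then at -1.39 and -1.18. Plau on the hypoxia arrays was fitted at -1.21 with an unadjusted p of 0.028 and an adjusted p of 0.67, from 6 arrays of which 1 was above background, and at -0.66 on the angiogenesis arrays. Mmp14 was fitted at -1.03 (adjusted p = 0.75), and at -0.01 without normalization. Mmp9 was fitted at -0.04, with an interval from -1.41 to 1.33.

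Day 7, where all members lay in the background, was also set against the later days. In HET, the day 14 densities of Mmp2, Mmp14, Plau, Adamts1 and Adamts8 lay below those of day 7, all of them in the background of their arrays. Mmp9 passed the limma test over both genotypes: it was 2.70 log2 units higher at day 10 (SE 0.66, adjusted p = 0.029) and 3.42 higher at day 14 (SE 0.66, adjusted p = 0.019). It kept its direction and its side of the threshold under each of the 3 other scalings, with an effect at day 14 of 6.77 without normalization and 4.49 with median scaling. Because its day 7 spots measured only background, the fitted sizes are not folds. None of the members was above background at day 7, so each entered this test only through the later days. The adjusted p-values against day 7, under any scaling, are therefore no separate support. Without normalization the bound for Mmp9, averaged over both genotypes, was 11.6-fold higher at day 10 and 22.1-fold higher at day 14. It was taken against the dimmest gene above background at day 7. After quantile normalization no bound could be given, as that dimmest gene then stood above Mmp9. In HET alone, the Mmp9 density at days 10 and 14 was 5.99 and 17.4 times the brightest control spot of the day 7 array. In WT it was 36.0 and 43.6 times. Mmp9 was 1 of 2 members to pass at each day, beside 32.3% of 96 genes at day 10 and 25% at day 14.

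The other was Mmp2, and its direction was set by the normalization. Quantile normalization gave it -2.68 at day 10 (adjusted p = 0.021) and -3.04 at day 14 (adjusted p = 0.019) relative to day 7, although its density was higher at day 10 in both genotypes. Without normalization it was fitted at 2.83 and 1.20, neither past the threshold, and with reference gene scaling at 3.74 at day 10 (adjusted p = 0.019). The day 7 arrays held 12 (HET) and 9 (WT) genes above background, so quantile normalization gives background spots there the values of well measured genes elsewhere. Timp2 did not pass after quantile normalization. Without normalization its bounds, averaged over both genotypes, were 55.6-fold at day 10 and 17.96-fold at day 14. The same bounds were 3.04 and 7.79 for Timp1. At day 10 they were 5.56 for Adamts8 and 2.34 for Mmp2, and Plau had none. These bounds were not tested. The limma fit without normalization used the day 7 background values themselves, with effects of 7.35 and 5.72 log2 units for Timp2. Its adjusted p-values were 0.012 and 0.027 for Timp2, 0.078 and 0.043 for Timp1, and 0.15 for Adamts8 at day 10. In HET alone, day 10 densities were lower multiples of the brightest day 7 control spot: 31.2 for Timp2, 1.52 for Timp1 and 1.59 for Mmp2. In WT these were 154, 10.6 and 6.03.

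Day 14 was then set against day 10, where most members could be measured. In HET, Timp1 was 1.99 log2 units higher at day 14 and Mmp9 1.07 higher, while Timp2 stood at -0.30. In WT, Timp1 was at 0.80, Mmp9 at 0.37 and Timp2 at -1.59. At least 2-fold higher were 2 of 4 members in HET (30.6% of 49 genes) and 1 of 6 in WT, Adamts8 at 1.44 (11.7% of 77 genes). At least 2-fold lower were 0 of 4 in HET (16.3%) and Timp2 as 1 of 6 in WT (10.4%). In WT Mmp2 differed by -0.80 and Plau by -0.19, and Adamts8 had a bound of -0.93 in HET. Mmp9 in WT turned to -0.43 with reference gene scaling, and Timp2 in HET to 0.74 with median scaling. Timp1 was above 0 in both genotypes under all 4 scalings, by 0.01 in WT with reference genes. In the limma fit over both genotypes, 0 of 96 genes (0%) passed, with 7 at an unadjusted p under 0.05. There Timp1 was fitted at 1.39, Mmp9 at 0.72 and Timp2 at -0.95 (adjusted p = 0.76, 0.78 and 0.76). On the hypoxia arrays 12 of 73 genes (16.4%) passed, none of them Mmp14 or Plau. Mmp14 had a bound of at least 1.28 in WT, where 28% of 50 genes were at least 2-fold higher, and 0.42 without normalization.

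**Figure D3:**
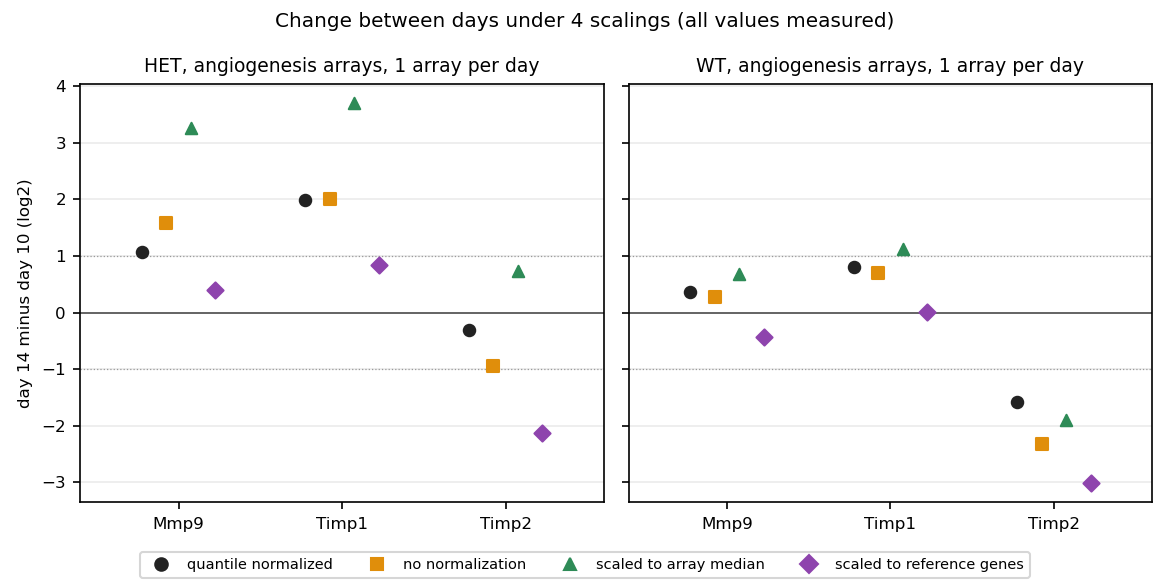
Day 14 minus day 10 difference (log2) of Mmp9, Timp1 and Timp2 in HET (left) and WT (right) under 4 scalings; each value compares 1 array per day, and dotted lines mark 2-fold. The scaling shifts all 3 genes of a panel, and Timp2 lies below Mmp9 and Timp1 under each of them.

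The balance between these genes does not depend on scaling an array as a whole, though quantile normalization changes it. Without normalization, Timp1 gained 2.95 log2 units on Timp2 between day 10 and day 14 in HET and 3.03 in WT, about 7.73-fold and 8.15-fold. Mmp9 gained 2.52 on Timp2 in HET and 2.59 in WT. Mmp9 differed by -0.43 relative to Timp1 in HET and by -0.44 in WT. After quantile normalization Timp1 gained 2.29 on Timp2 in HET and 2.39 in WT, Mmp9 gained 1.38 and 1.95, and Mmp9 relative to Timp1 stood at -0.91 in HET and -0.44 in WT. HET minus WT at day 14 exceeded that at day 10 by 1.31 for Mmp9, 1.31 for Timp1 and 1.38 for Timp2. Over the 30 genes above background and below the scanner's ceiling on all 4 arrays, this quantity had a median of -0.01, quartiles of -0.93 and 1.14, and a range from -2.86 to 2.54. The 3 members thus lay above the upper quartile and close to each other. After quantile normalization they stood at 0.71, 1.18 and 1.28, where the upper quartile was 1.05. With 1 array per genotype and day this has no test, it uses the same 4 arrays as the genotype differences above, and it was chosen after the values were seen.

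**Figure D4:**
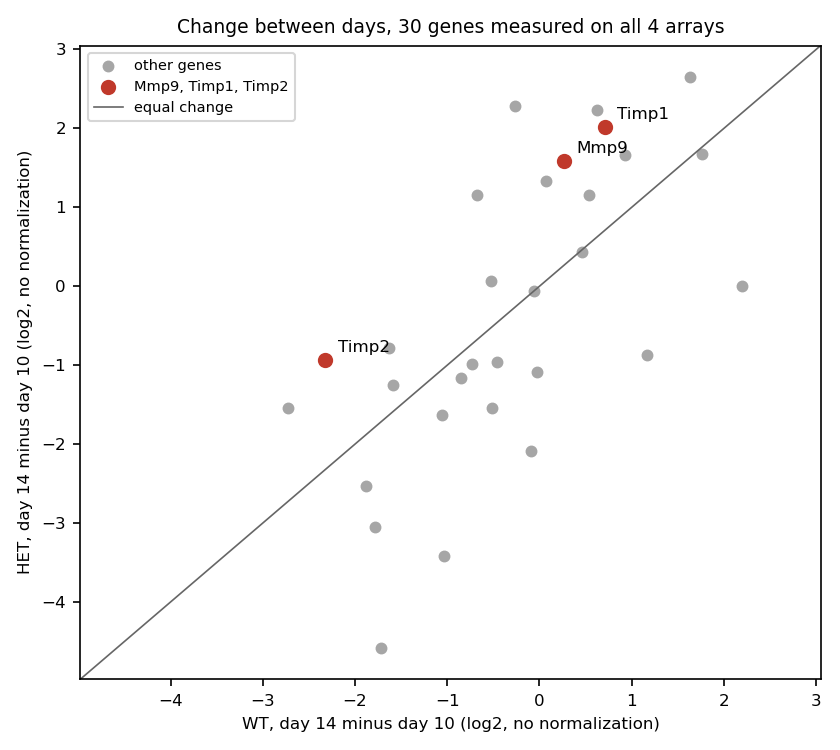
Day 14 minus day 10 difference (log2, no normalization) in HET (vertical) against WT (horizontal) for the 30 genes measured on all 4 arrays; the line marks equal change. Mmp9, Timp1 and Timp2 lie 1.31, 1.31 and 1.38 above the line, with Timp2 to the lower left of the other members.

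Marker genes of other cells had different densities at the same days, and their part in the members' values was not tested. These densities are not normalized. Over all angiogenesis genes with a difference, the unnormalized median of day 14 minus day 10 was -0.95 in HET and -0.57 in WT. The summed density of the macrophage markers Msr1 and Cd36, both above background, was 40179 at day 10 and 14391 at day 14 in HET, and 40820 and 8175 in WT. The bone marker Spp1 had 1606 and 9740 in HET and 3653 and 11369 in WT, while Sparc was past the ceiling on 3 of these 4 arrays. The 7 endothelial markers summed to 55068 and 45788 in HET, with 7 and 3 above background, and to 69465 and 60722 in WT, with 5 at each day. The neuroendocrine marker on these arrays had 28587 and 6674 in HET and 42232 and 39641 in WT. After quantile normalization it differed by -0.59 in HET and 0.41 in WT. The normalized medians were -0.46 and -1.23 for the macrophage markers, in HET and WT. For the bone markers they were 2.17 in HET, over 2 genes, and 2.02 in WT, over 1 gene, as only the HET value includes Sparc. For the endothelial markers they were -0.61 over 4 genes in HET and -0.11 over 5 in WT. On the hypoxia arrays, which carry Mmp14 and Plau, the fat marker Fabp4 had 43925 and 388 in HET and 44652 and 816 in WT. Without normalization it differed by -6.73 in HET and -5.73 in WT, where the median over all hypoxia genes with a difference was -4.76 and -1.79. After quantile normalization it fell at day 14 over both genotypes, with a day 14 minus day 10 difference of -3.87 log2 units (limma adjusted p = 0.037).

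Other proteases and inhibitors on the arrays were described from a list of such genes. On the angiogenesis arrays 5 were present, of which 3 had a difference at day 10. In HET, 2 of these 3 were lower by 2-fold or more and 0 were higher by as much, against 13% and 7.79% of all 77 genes. Their median was -1.11 against -0.08 over all 77 genes, or -2.36 against -1.45 without normalization. The brightest was Serpinf1, the gene of the secreted serpin PEDF, with 1115 in HET and 5484 in WT at day 10 and with 5148 in HET and 4633 in WT at day 14. Serpinb5 (maspin) had 188 in HET and 1157 in WT at day 10. F2 (prothrombin) was above background on 1 of 6 arrays. At day 14 only Serpinf1 had a difference, 1.01, or 0.18 without normalization. The list held on the hypoxia arrays Ece1, which processes endothelin, and Cstb, an inhibitor of cathepsins. They had a difference in 1 case at day 10 (0.17, Ece1) and in 2 at day 14 (median 0.95).

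Among matrix genes on the angiogenesis arrays, on which the proteases act or which bind matrix, 7 of 10 had a difference at day 10, with 0 at least 2-fold higher, 2 at least 2-fold lower and a median of -0.11. At day 14, 5 of 10 had one, with 0 in either direction and a median of -0.61 against 0.14 over all 46 genes, or -1.54 against -1.56 without normalization. Thbs2 (thrombospondin 2, which binds matrix and metalloproteinases) had 38898 in HET and 49614 in WT at day 10, and 21451 in HET and 45560 in WT at day 14. Its day 10 spot in WT was past the ceiling of 45701. Of 10 known inducers of matrix proteases on these arrays, 7 had a difference at day 10. Of these, 1 was at least 2-fold higher (Ptgs2, the inducible prostaglandin synthase, with 5445 in HET and 2241 in WT) and 0 lower, beside the same shares of all genes. Their median was -0.27 against -0.08 over all, or -1.67 against -1.45 without normalization. At day 14, 6 had a difference, with 0 at least 2-fold apart. Their median was 0.59 against 0.14 over all, or -1.65 against -1.56 without normalization. On the hypoxia arrays 3 of 4 inducers had a difference at day 10, and the cytokine genes Il6 and Il1b had 41858 and 21855 in HET against 13517 and 8428 in WT. Both differed by 1.76, or by -0.52 and -0.78 with median scaling.

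Genes with a profile like that of a member were sought among the angiogenesis genes above background and below the ceiling on at least 4 of 6 arrays, by the mean absolute difference of their centred, normalized log2 values over the 6 arrays. Nearest to Mmp9 were Tek at 0.48 and Pdgfra at 0.56, where the median over 29 genes was 1.27. Nearest to Timp1 were Tgfa at 0.67 and Tgfb1 at 0.83 (median 1.47), and nearest to Timp2 were Thbs4 at 0.51 and Thbs3 at 0.73 (median 1.03). Mmp9, Timp1 and Timp2 were themselves below background at day 7, so 2 of the 6 points of each profile are background.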

How the data were processed

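The scanner files that the authors deposited give the intensity of 112 spots per array as an average density on a linear scale, with no background column, per the file headers, which also name the arrays as GEArray Q Series membranes for mouse hypoxia signalling and mouse angiogenesis. Per the labels' protocols, 3 ug of pooled RNA was amplified and labelled with biotin. Which software made the densities is not stated in these sources. The value tables that the authors deposited hold a ratio per spot. It equalled the density minus the array's lowest density, over the same for the mean of the Actb spots, to within 6.45e-10. Its scale is linear and its direction that of the densities, with no centring, medians per column from 0.0017 to 0.75 over filled spots, and 24 to 64 of 112 spots filled. Of the 2 scanner files of the HET day 7 angiogenesis sample, the one headed as WT and identical to the WT file in 112 of 112 spots was not used.

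Densities were corrected with limma's normexp (limma 3.58.1, R 4.3.3; offset 25.9, 10% of the median density of gene spots), put on the log2 scale, averaged per gene and quantile normalized within an array type. A gene counted as at the ceiling at 90% of the highest density (50779); no member reached it. Differences of 1 log2 unit (2-fold) between 2 arrays were counted without a test. The effects of genotype and of day were tested in 1 additive limma fit per array type, two-sided, and p-values were adjusted by Benjamini-Hochberg over every gene that exceeded background on 1 or more of 6 arrays. The fit was tested on simulated data. The number of arrays limits the precision. The named genes are the 8 members, at most 4 of the brightest genes of each list, and the 2 nearest profiles per member. Members, lists and tests were chosen with earlier results of these data known. Alternatives were 3 other scalings, other background corrections, filters, limits and ceilings, leaving out a day, and the authors' ratios. Columns of the value tables were matched to samples by name. The values of 1 listed gene are not reported here. Array symbols carry no probe positions, so gene coordinates are not given.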

Additional observations from a re-analysis of the deposited data

Results flagged for a closer look

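Adamts8 was higher in HET at day 10 and lower at day 14, with HET minus WT differences of 0.57 and of at most -1.80 on the log2 scale, or at most -0.87 at day 14 with 1 background limit for all arrays. Without normalization the first was -0.74 and the second at most -4.88, so both were then negative. The day 14 minus day 10 difference of Adamts8 likewise had opposite directions in the 2 genotypes, at most -0.93 in HET and 1.44 in WT, and at most -2.79 and 1.35 without normalization. The HET minus WT difference of Timp1 was -1.03 at day 10 and 0.15 at day 14, and -2.58 and -1.28 without normalization. That of Timp2 was -1.22 and 0.063, and -1.94 and -0.56 without normalization. These differences between days or genotypes were not tested, as 1 array per group leaves none to test them with.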

How the results depend on the processing

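Of the members' values under all alternatives, 231 kept their direction and side of the threshold or moved by less than the repeat spots' SD, 60 moved further, 12 of them with a change of sign, 21 others changed sign, 2 lost and 1 gained a call. Offset 50 and no background correction moved none beyond that. Of the 33 changes of sign, 25 came with another scaling, 3 with the authors' ratios and 5 with a left-out day. In the limma fit of HET minus WT, where no call was made, Mmp2 (0.22) was at -0.80 without normalization, -0.78 with reference genes and -0.016 without day 14. Mmp9 (-0.04) was at 0.56 with median scaling, 0.36 without day 10 and 0.0046 without day 14. Plau on the angiogenesis arrays was at 0.094 with median scaling and 0.12 without day 7, Adamts1 at -0.25 without normalization, -0.23 with reference genes and -0.56 without day 10, and Timp2 at 0.69 with median scaling. For day 14 minus day 10, Mmp9 was at -0.012 with reference genes, Plau at -0.69 without normalization and -1.63 with reference genes, and Mmp14 at -1.41 and -0.96. Mmp2 against day 7 was at 2.83 (day 10) and 1.20 (day 14) without normalization and at 3.74 and 1.17 with reference genes; with median scaling it lost its call, at -0.50 and -1.08.

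Counts of genes at least 2-fold apart between genotypes rose without normalization, with median and with reference gene scaling, by differing amounts. On the angiogenesis arrays the 16 of day 10 became 47, 23 and 39, in this order, and 9 with 1 background limit for all arrays. The 10 of day 14 became 48, 28 and 50. On the hypoxia arrays the 13 of day 10 became 27, 23 and 28. The 15 of day 14 became only 20, 18 and 22, but 5 with 1 limit. The 31 genes past the threshold for day 10 minus day 7 became 68 with reference genes. The 12 for day 14 minus day 10 on the hypoxia arrays became 33, 20 and 39, and 4 when genes had to be above background on 3 arrays. With 1 limit for all hypoxia arrays, the counts of Mmp14 and Plau above background in WT became 0 at day 10 and 0 at day 14. No gene passed the genotype test under any alternative. The cause of these moves was not tested. No paired analysis was possible because each group has 1 array; day is already a block. Left-out days keep 1 residual degree of freedom.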

Other observations

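In the value tables that the authors deposited, the members' ratios to Actb were filled in 0, 4 and 3 of 7 cases on the angiogenesis arrays labelled HET at days 7, 10 and 14, and in 4, 5 and 4 of 7 on the WT arrays. The 4 filled at day 7 in WT were Mmp2 at 0.00096, Plau at 0.00091, Timp1 at 0.0017 and Timp2 at 0.0010, whose spots were all dimmer than that array's brightest control. Conversely, Mmp2 and Timp1 in HET at day 10 had no ratio, with spots at 3.05 and 2.93 times the brightest control of their array. For Mmp9 the deposited ratios were 0.037 and 0.11 in HET at days 10 and 14, and 0.17 and 0.21 in WT. For Timp2 they were 0.20 and 0.10 in HET, and 0.75 and 0.15 in WT.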
